A study of Homo sapiens with 12 samples.

Results

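The genes described here are 10 members of the transforming growth factor beta (TGF-beta) system, selected by gene symbol: the ligands TGFB1, TGFB2 and TGFB3 with the activin subunit INHBA, the receptors TGFBR1, TGFBR2 and TGFBR3, the latent binding proteins LTBP1 and LTBP2, and the matrix protein TGFBI. Each symbol matched 1 of the 57905 rows of the deposited expression table. Of the 10 genes, 8 were tested, among 14699 genes that reached 1 FPKM or more in 2 or more libraries. TGFB1 and TGFBR3 were below that filter. FPKM are fragment numbers divided by gene length and by library size, so levels of different genes can be set side by side on that scale. The division takes no account of other differences between genes, such as the GC content of their transcripts.

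Bulk mRNA was sequenced from PC9, HCC827 and HCC4006 cells, 3 established lines of human non-small cell lung cancer whose EGFR gene is mutated, in 12 libraries. In each line, dormant cells had received 100 nM osimertinib, an inhibitor of EGFR, together with 30 nM trametinib, which inhibits MEK, over 2 weeks. Control cells of the same line had received the solvent DMSO for 24 h. There were 2 libraries for each of the 6 groups. Dormant cells were grown in dishes of 15 cm, against 10 cm for control cells, so drug, duration and dish cannot be told apart. Plates were set up in duplicate and nothing says that they came from separate cultures. The p-values therefore measure only the spread between these libraries, which may be technical. In bulk RNA, fewer cells expressing a gene and less RNA per cell cannot be told apart.

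TGF-beta proteins are secreted in a latent form, in which their own propeptide holds the ligand inactive and is tied to the matrix by latent binding proteins. Released ligand binds the type II receptor TGFBR2, which then phosphorylates the type I receptor TGFBR1, and this in turn phosphorylates the transcription factors SMAD2 and SMAD3. Activins, dimers of INHBA products, use other receptors and reach the same SMAD proteins. In epithelial and carcinoma cells the pathway is known for growth arrest, matrix production and the shift to a mesenchymal state.

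Replicates resembled each other closely in 4 of the 6 groups, and 2 libraries did not match theirs. Across genes, the second HCC4006 dormant library correlated with the first at a Pearson r of 0.654, and the second HCC827 DMSO library with the first at 0.909, against 0.979 to 0.991 in the other pairs. GAPDH, a glycolytic enzyme gene, was at 6.72 FPKM in the second HCC4006 dormant library, against 3755 in the first, and 1948 tested genes were at 0 in it, against 368. In the second HCC827 DMSO library GAPDH was at 6742 FPKM, against 19645 in the first, and the actin gene ACTB at 1842, against 12726. The summed FPKM of a library ran between 793883 and 1159352. No counts were given, so depth is unknown. Markers of lung epithelial carcinoma cells summed to between 973.8 and 23007 FPKM in every library, with the lowest sums in HCC4006 dormant and HCC827 DMSO cells. The thyroid transcription factor NKX2-1, a marker on that list, was listed at 0 in all PC9 libraries. Fibroblast markers summed to at most 15.7 FPKM, in HCC4006 dormant cells, endothelial markers to at most 3.05 and leukocyte markers to at most 1.1. Results that rest on the libraries standing apart are given with and without them.

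Differences subtract DMSO from dormant cells in units of log2(FPKM + 1) and carry the SE and the adjusted p of limma. A gene is called at an adjusted p under 0.05. Adding 1 makes the difference of low genes smaller than the ratio of their values. In the mean over the 3 lines with equal weight, 3 of the 8 tested members rose, TGFB2, INHBA and TGFB3, and none fell. TGFB3 reached 1 FPKM in dormant libraries alone, so it was tested only because it was high there and its call is given as a description. Over all tested genes, 10.9% rose and 4.55% fell, 1599 and 669 genes, and the median difference was 0.22. With median of ratios scaling the median was 0.034, and 1193 genes rose and 1256 fell. With both libraries that stood apart left out, 5 members rose (30.5% of all genes) and TGFBI fell (13.3%). With the 3 line means taken as the replicates no member was called. In PC9 no member rose (1.82% of all genes) and 1 of 8 fell (0.891%), against 2.71% of all genes called in either direction. In HCC827 1 member rose (3.06% of all genes) and none fell (1.44%), against 4.5% in either direction, and in HCC4006 3 rose (4.88%) and none fell (1.18%), against 6.07%.

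**Figure D1:**
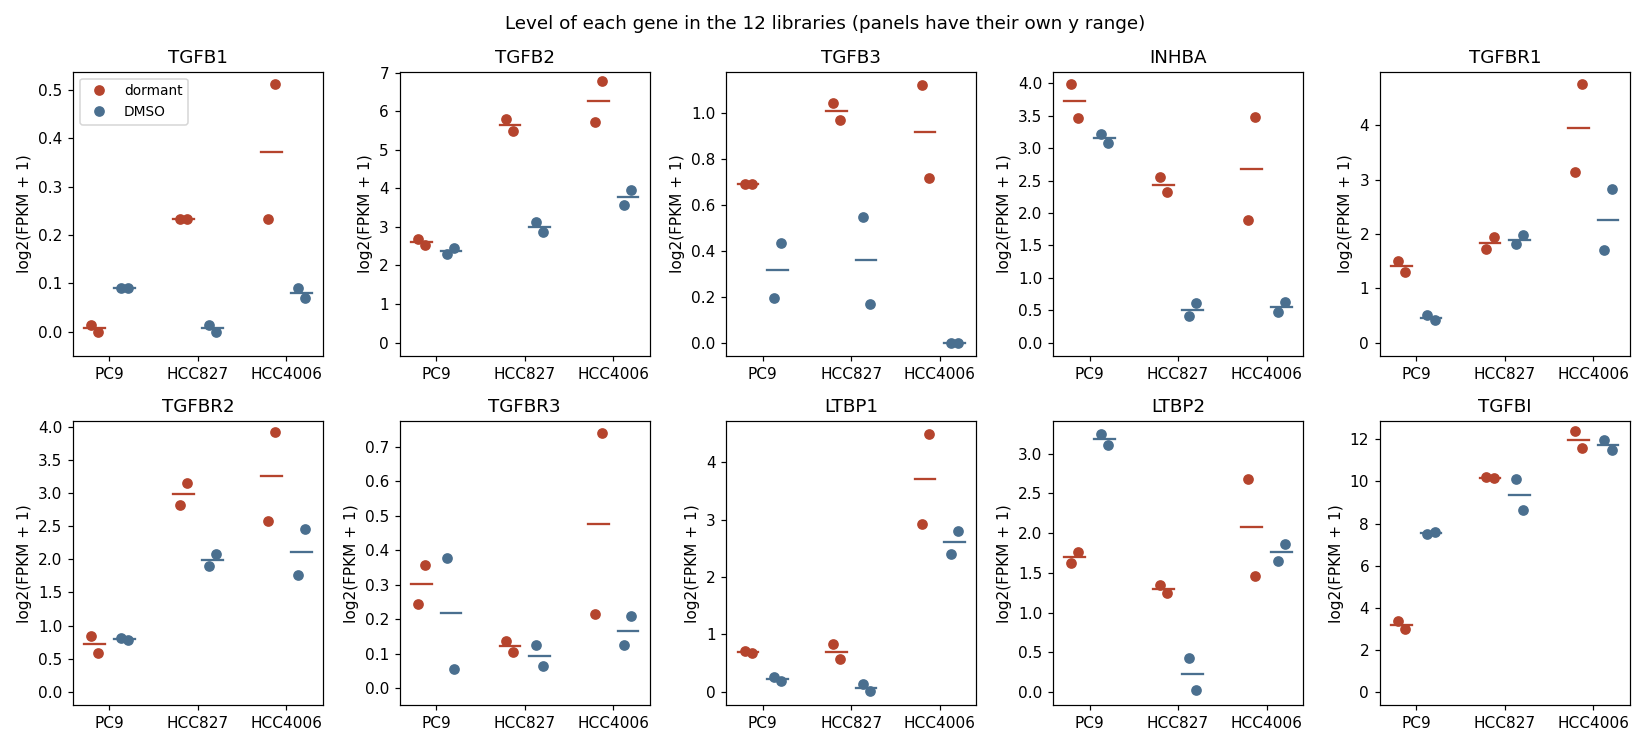
Level of the 10 genes as log2(FPKM + 1), with 1 point per library, a bar at the mean of each group, and dormant cells to the left of DMSO cells in each line. Each panel has its own range. TGFBI covers the widest span, between 7.02 and 5394 FPKM, while TGFB1 and TGFBR3 stay at or under 0.425 and 0.67 FPKM.

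TGFB2 had the highest listed FPKM of the 4 ligand genes in every library of HCC827 and HCC4006. It encodes TGF-beta 2, the isoform that depends most on TGFBR3 for binding to the type II receptor. In HCC827 it had 54.4 and 44.1 FPKM in dormant cells, against 7.76 and 6.26 in DMSO cells. In HCC4006 it had 52.0 and 109.8 FPKM in dormant cells, against 10.9 and 14.6 in DMSO cells. Dormant cells were thus above DMSO cells without overlap in both lines, by 7.02-fold in HCC827 and 6.35-fold in HCC4006. In PC9 the values were 5.42 and 4.80 FPKM in dormant cells and 3.88 and 4.43 in DMSO cells, which did not overlap either, but the gap was small.

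TGFB2 rose by 1.80 ± 0.27 in the mean over lines (adjusted p = 0.00245), and it kept this call with any 1 of the libraries left out, with a highest adjusted p of 0.0169. It rose by 2.65 ± 0.46 in HCC827 (adjusted p = 0.0122) and by 2.49 ± 0.46 in HCC4006 (adjusted p = 0.0154). The PC9 difference of 0.25 ± 0.46 was not called (adjusted p = 1). The HCC827 call was lost without the second HCC827 DMSO library or without either HCC827 dormant library (highest adjusted p = 0.178), and the HCC4006 call without either HCC4006 DMSO library (highest adjusted p = 0.154). Without both libraries that stood apart the differences were 2.51 in HCC827 (adjusted p = 0.000325) and 1.96 in HCC4006 (adjusted p = 0.00188).

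The TGFB2 level set dormant PC9 cells apart from dormant HCC827 and HCC4006 cells, which overlapped. The order of group means was HCC4006 dormant, HCC827 dormant, HCC4006 DMSO, HCC827 DMSO, PC9 dormant and PC9 DMSO, and the 2 highest groups were the only neighbours whose libraries overlapped. The dormant lines differed by the F test (adjusted p = 0.00087), and the DMSO lines were not called (adjusted p = 0.152). Whether the TGFB2 difference itself varied between lines was not called (adjusted p = 0.183), although it was without both libraries that stood apart (adjusted p = 0.00894).

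INHBA encodes the beta A subunit shared by activin A and inhibin A. In HCC827 it had 4.87 and 3.98 FPKM in dormant cells, against 0.325 and 0.52 in DMSO cells. In HCC4006 it had 2.70 and 10.2 FPKM in dormant cells, against 0.39 and 0.55 in DMSO cells. Dormant cells were above DMSO cells without overlap, by 10.5-fold in HCC827 and 13.7-fold in HCC4006, although both HCC4006 dormant libraries lay far from each other. PC9 already had the highest DMSO level, with 15.0 and 10.0 FPKM in dormant cells and 8.34 and 7.47 in DMSO cells.

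INHBA rose by 1.55 ± 0.29 in the mean over lines (adjusted p = 0.00773), a call kept whichever library was left out (highest adjusted p = 0.035). In HCC4006 it rose by 2.13 ± 0.51 (adjusted p = 0.0405), but this call was lost in 10 of the 12 cases in which 1 library was left out. The HCC4006 difference was 1.33 (adjusted p = 0.0189) without both libraries that stood apart. In HCC827 the difference of 1.93 ± 0.51 missed the threshold (adjusted p = 0.0673), and without both libraries that stood apart it was 2.03 and called (adjusted p = 0.00191). The PC9 difference was 0.58 ± 0.51 (adjusted p = 0.834). INHBA was not called different between the dormant lines (adjusted p = 0.13), and differed between the DMSO lines (adjusted p = 0.0106). Its antisense gene INHBA-AS1 stayed between 0.01 and 0.17 FPKM.

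TGFB3, the gene of TGF-beta 3, was low everywhere. It had 0.615 and 0.615 FPKM in PC9 dormant cells, against 0.145 and 0.35 in PC9 DMSO cells. In HCC827 it had 1.06 and 0.955 FPKM in dormant cells, against 0.46 and 0.125 in DMSO cells, and in HCC4006 it had 1.18 and 0.64 FPKM in dormant cells and was listed at 0 in both DMSO libraries. Dormant cells were above DMSO cells without overlap in all 3 lines, but only 2 of the 12 libraries reached 1 FPKM, both dormant. The gene thus passed the filter through the dormant groups alone, and its difference is given with that limit.

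TGFB3 rose by 0.65 ± 0.13 in the mean over lines (adjusted p = 0.0104). The call was lost without the first PC9 DMSO library (adjusted p = 0.0518), with no filter on low values and with weights on libraries, and in 2 of the 12 cases the gene fell below the filter. In HCC4006 it rose by 0.92 ± 0.23 (adjusted p = 0.0449). With 1 library left out it was tested in 10 cases, and in 9 of them this call was lost. The gene IFT43 overlaps TGFB3 on the opposite strand and had 5.26 to 45.1 FPKM. The libraries were made with a stranded kit, and whether the counting used strand is not given in the sources used here.

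TGFB1, the isoform usually most abundant in tissues, was listed near 0 in all libraries. It had 0.01 and 0 FPKM in dormant PC9, against 0.065 and 0.065 in DMSO PC9. In HCC827 it had 0.175 and 0.175 FPKM in dormant cells, against 0.01 and 0 in DMSO cells, and in HCC4006 0.175 and 0.425 FPKM in dormant cells, against 0.065 and 0.05 in DMSO cells. With no filter its mean difference was 0.14 ± 0.05 (adjusted p = 0.181). Its longest transcript has a GC content of 63.5%, above 93.5% of coding genes. Of the 1911 coding genes with the highest GC content, 62.4% were below the filter, against 41.3% of all 19105 coding genes. EP300 and SKI, genes that most cells use, were also below the filter. Their GC content is 52.0% and 60.0%, above 59.9% and 84.9% of coding genes, so neither is in that highest group. TGFB2 and INHBA have a low GC content, 38.9% and 39.1%, above 10.8% and 11.7% of coding genes. The part of GC content in the level of TGFB1, or in its place below TGFB2, was not tested. The genes HNRNPUL1, CCDC97, TMEM91 and AC011462.1 overlap TGFB1 on the opposite strand, the first of them at 1.31 to 32.8 FPKM.

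The sequences upstream of the 3 ligand genes called in the mean are shown because all of them hold the letters TATAAA. These letters are those of the TATA box, a core promoter element, and lie in the 250 bases before a RefSeq start site. The first start site of TGFB3 holds no such match, and the second is shown. Whether any match works as a TATA box was not tested. The sequences are read 5′ to 3′ on the strand of the gene from RefSeq on GRCh38.p14. This is a later build than the hg19 and GRCh37 named for the expression values. Capitals mark the letters searched: TATAAA for the TATA box (strand of the gene), CAGAC for the core SMAD element, GGAATG for the TEAD element, TGACGTCA for CRE and TGANTCA for AP-1, each of these on both strands. The windows are chr1:218345086-218345335 (plus strand) for TGFB2, chr7:41703091-41703340 (minus strand) for INHBA and chr14:75981996-75982245 (minus strand) for the second of the start sites of TGFB3.
TGFB2: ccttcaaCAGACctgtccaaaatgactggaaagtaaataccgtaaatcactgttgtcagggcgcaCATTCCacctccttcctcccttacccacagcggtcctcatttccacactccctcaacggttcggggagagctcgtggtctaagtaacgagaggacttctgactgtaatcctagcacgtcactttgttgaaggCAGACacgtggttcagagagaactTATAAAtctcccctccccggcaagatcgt
INHBA: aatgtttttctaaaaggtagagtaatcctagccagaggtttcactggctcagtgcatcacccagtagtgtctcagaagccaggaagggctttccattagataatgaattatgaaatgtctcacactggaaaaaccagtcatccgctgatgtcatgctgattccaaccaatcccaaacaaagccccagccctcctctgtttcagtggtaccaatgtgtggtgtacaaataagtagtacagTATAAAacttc
TGFB3: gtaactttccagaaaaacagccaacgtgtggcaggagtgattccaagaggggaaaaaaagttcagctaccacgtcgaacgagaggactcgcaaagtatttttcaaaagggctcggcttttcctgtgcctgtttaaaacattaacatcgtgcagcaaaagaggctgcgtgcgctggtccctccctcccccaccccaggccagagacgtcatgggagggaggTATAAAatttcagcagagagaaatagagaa

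TATAAA begins 29 bases before the start of TGFB2, 11 before that of INHBA and 30 before the second start of TGFB3. The 10 genes have 21 start sites in the table, of which TGFBR1 has 8. Counted per gene, over all of its start sites, TATAAA was found upstream of 3 of the 10 genes, against 8.4% of the 27305 genes of the table. Counted per window, it was found in 3 of 21, against 6.8% of 35116. GGAATG, the motif bound by TEAD factors, the DNA-binding partners of YAP, was found upstream of TGFB2 and TGFBR1, in 2 of 21 windows, against 11.9% of all windows. In TGFB2 it lies on the opposite strand and reads CATTCC, beginning 185 bases before the start. CAGAC was found in 9 of the 21 windows (38.0% of all windows), TGACGTCA in 1, of LTBP1 (1.6%), and TGANTCA in none (6.6%). A match describes the letters and does not show that a factor binds there.

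No receptor gene was called in the mean or in a line. TGFBR1, the type I receptor kinase, had 7.79 and 26.2 FPKM in HCC4006 dormant cells, against 2.27 and 6.07 in HCC4006 DMSO cells. In PC9 it had 1.83 and 1.47 FPKM in dormant cells, against 0.415 and 0.33 in DMSO cells, and in HCC827 2.32 and 2.83 FPKM in dormant cells and 2.5 and 2.96 in DMSO cells. Dormant cells were above DMSO cells without overlap in HCC4006 and PC9 and overlapped with them in HCC827. The differences were 1.69 ± 0.55 in HCC4006 (adjusted p = 0.0911), 0.95 ± 0.55 in PC9 (adjusted p = 0.607) and -0.06 ± 0.55 in HCC827 (adjusted p = 0.992). The mean of 0.86 ± 0.32 was not called (adjusted p = 0.0981), while without both libraries that stood apart it was 0.62 and called (adjusted p = 0.0461). The HCC4006 difference was 0.87 without them.

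TGFBR2, the type II receptor that binds the ligand first, followed another pattern over the lines. In HCC827 it had 6.04 and 7.86 FPKM in dormant cells, against 2.73 and 3.22 in DMSO cells. In HCC4006 it had 4.99 and 14.1 FPKM in dormant cells, against 2.39 and 4.47 in DMSO cells. Dormant cells were above in both lines, and PC9 was low in either state, with 0.795 and 0.50 FPKM in dormant cells and 0.76 and 0.725 in DMSO cells. The mean difference was 0.68 ± 0.28 (adjusted p = 0.121), and no line was called. TGFBR1 and TGFBR2 both differed between the dormant lines (adjusted p = 0.0147 and 0.00662), where HCC4006 dormant cells had the highest mean of each and PC9 dormant cells the lowest. Neither was called different between the DMSO lines (adjusted p = 0.104 and 0.155). For TGFBR2 the highest mean of HCC4006 rested on its second dormant library, which stood apart. The first, at 4.99 FPKM, was below both HCC827 dormant libraries, at 6.04 and 7.86.

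TGFBR3, the co-receptor betaglycan that presents TGF-beta 2, stayed between 0.04 and 0.67 FPKM. HCC4006 dormant cells had 0.16 and 0.67 FPKM, against 0.09 and 0.155 in HCC4006 DMSO cells, which did not overlap, and the groups overlapped in PC9 and HCC827. With no filter its mean difference was 0.14 ± 0.11 (adjusted p = 0.571), and 0.31 ± 0.18 in HCC4006 (adjusted p = 0.369). HCC827 and HCC4006, the lines with the highest TGFB2 in dormant cells, thus had this co-receptor at low listed levels in both states, as did PC9.

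**Figure D2:**
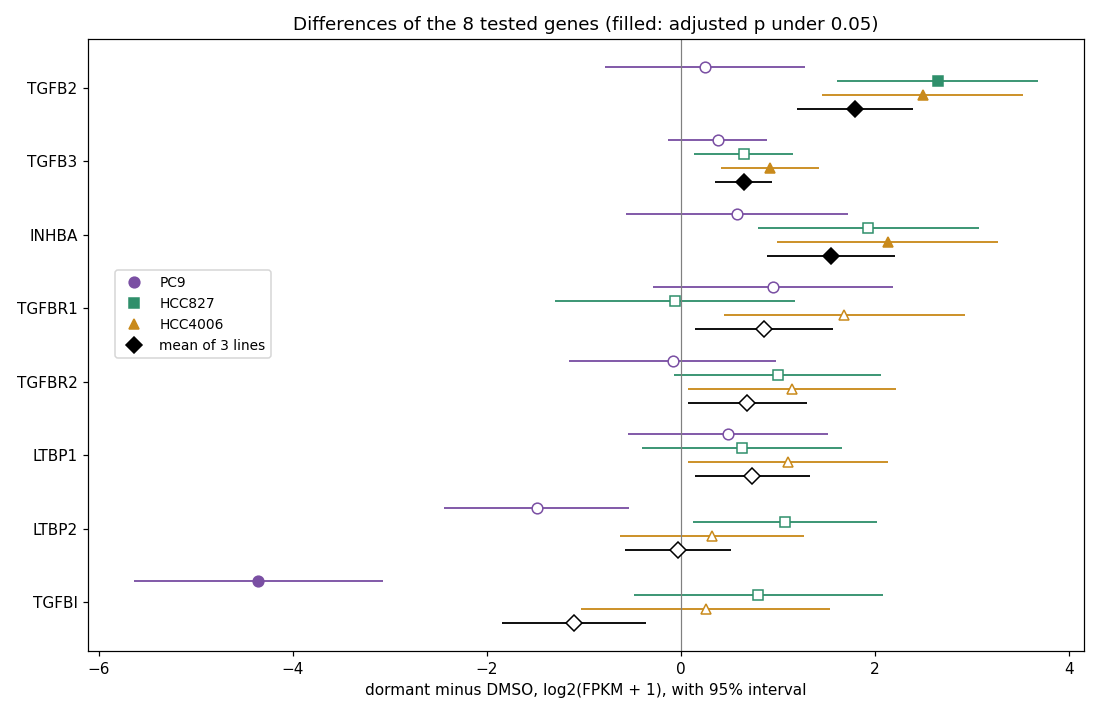
Difference of the 8 tested genes, dormant minus DMSO in log2(FPKM + 1), for each line and for the mean over lines, with 95% intervals (not adjusted) as bars. Filled symbols mark an adjusted p under 0.05. The 3 ligand genes lie above 0 in every line, and TGFBI in PC9 lies at -4.36.

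The latent binding proteins moved in different ways. LTBP1, which ties latent TGF-beta to fibrillin and fibronectin, had 6.57 and 21.5 FPKM in HCC4006 dormant cells, against 4.31 and 5.98 in HCC4006 DMSO cells. In PC9 it had 0.64 and 0.605 FPKM in dormant cells, against 0.19 and 0.135 in DMSO cells, and in HCC827 0.78 and 0.485 FPKM in dormant cells, against 0.095 and 0.01 in DMSO cells. Dormant cells were above DMSO cells without overlap in all 3 lines, but the mean difference of 0.74 ± 0.27 was not called (adjusted p = 0.0888), and was 0.46 and called without both libraries that stood apart (adjusted p = 0.0292). LTBP1 differed between lines in the dormant state (adjusted p = 0.00168) and under DMSO (adjusted p = 0.00851), with HCC4006 highest in both.

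LTBP2, a relative that binds fibrillin and does not itself bind latent TGF-beta, had 2.10 and 2.39 FPKM in PC9 dormant cells, against 8.52 and 7.66 in PC9 DMSO cells. In HCC827 it had 1.55 and 1.38 FPKM in dormant cells, against 0.34 and 0.02 in DMSO cells. Dormant cells were 3.61-fold lower in PC9 and higher in HCC827, without overlap in either line. In HCC4006 it had 5.45 and 1.76 FPKM in dormant cells and 2.15 and 2.63 in DMSO cells, which overlapped. The differences of -1.49 ± 0.43 in PC9 (adjusted p = 0.133) and 1.07 ± 0.43 in HCC827 (adjusted p = 0.214) were not called. Without both libraries that stood apart the PC9 difference was -1.49 and called (adjusted p = 0.00123), and the difference varied between lines (adjusted p = 0.00287, against 0.152 with all libraries). The HCC4006 difference was 0.32 (adjusted p = 0.636), and without them 0.93 and called (adjusted p = 0.0461). LTBP2 differed between the DMSO lines (adjusted p = 0.00436), with PC9 highest.

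TGFBI, an adhesion protein of the matrix named for its induction by TGF-beta, was the most abundant member in each group except PC9 dormant cells, where INHBA was higher. It showed the largest difference among the members. In PC9 it had 9.24 and 7.02 FPKM in dormant cells, against 180.3 and 189.5 in DMSO cells, 22.8-fold lower. In HCC827 it had 1172 and 1137 FPKM in dormant cells, against 1093 and 402.5 in DMSO cells, and the lowest of these was the library that stood apart. In HCC4006 it had 5394 and 3072 FPKM in dormant cells and 4021 and 2891 in DMSO cells. PC9 dormant cells were thus far below PC9 DMSO cells, HCC827 dormant cells were above HCC827 DMSO cells without overlap, and the HCC4006 groups overlapped. By FPKM, TGFBI ranked 15 and 34 among the 14699 tested genes in HCC4006 dormant libraries, against 39 and 55 in HCC4006 DMSO libraries. In PC9 it ranked 3689 and 4048 in dormant libraries, against 469 and 408 in DMSO libraries.

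TGFBI fell by 4.36 ± 0.57 in PC9 (adjusted p = 0.00326). The call was lost without either PC9 DMSO library or without the second PC9 dormant library (highest adjusted p = 0.0717), with differences between -4.54 and -4.18. It was not called in HCC827 (0.80 ± 0.57, adjusted p = 0.521) or HCC4006 (0.26 ± 0.57, adjusted p = 0.792), and the mean of -1.10 ± 0.33 fell just short (adjusted p = 0.0507). Without both libraries that stood apart the mean was -1.21 (adjusted p = 0.000101) and the HCC827 difference 0.08 (adjusted p = 0.882).

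Whether the difference varied between lines was called for TGFBI alone of the 8 members (adjusted p = 0.0206), against 1.48% of all genes. That call held in 4 of the 12 cases with 1 library left out and had adjusted p between 0.000221 and 0.166 over them. Without both libraries that stood apart it was 6.49e-05. TGFBI differed between the dormant lines (adjusted p = 2.08e-05) and between the DMSO lines (adjusted p = 0.00308), and both calls held with any 1 library left out.

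Counted by libraries, both dormant libraries lay above both DMSO libraries for 5 of the 8 tested members in PC9 (35.5% of all genes), 7 in HCC827 (40%) and 6 in HCC4006 (30.4%). TGFB3 is in each of these counts, which its passing the filter through dormant libraries favoured. Both lay below for 2 members in PC9, TGFBI and LTBP2 (27%), and for none in HCC827 (19.4%) or HCC4006 (15.8%). Besides TGFB3, the genes TGFB2, INHBA and LTBP1 were above in all 3 lines, 3 of the other 7 members, against 9.12% of all genes, and none was below in all 3 (4.43%). TGFBI and LTBP2 were below in PC9 and above in HCC827, 2 of 8 members, against 5.11%.

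The lines also differed in which member was high. In the dormant state 5 of the 8 members differed between lines, TGFB2, TGFBR1, TGFBR2, LTBP1 and TGFBI, against 31.6% of all genes. The mean of each was highest in HCC4006 cells, for TGFBR2 only through the second HCC4006 dormant library, which stood apart. Under DMSO 4 differed, INHBA and LTBP2 with PC9 highest and LTBP1 and TGFBI with HCC4006 highest, against 12% of all genes. Without both libraries that stood apart, 7 members differed in the dormant state (64.4% of all genes) and 7 under DMSO (51.3%).

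The other genes of the pathway were counted in 6 lists of 118 genes in all, 84 of them tested. In the mean over lines 25 rose and 4 fell, against 15.4% of all genes called in either direction. Without both libraries that stood apart 53 were called, against 43.8% of all genes. Of the 17 genes named below, 12 kept their call in the mean whichever library was left out. ITGB8, INHBB, NRP1, VASN and BMPR1A did not. Among the 25 genes that rose, INHA, VASN, BMPR1A and COL1A1 passed the filter through dormant libraries alone, which favoured that count.

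**Figure D3:**
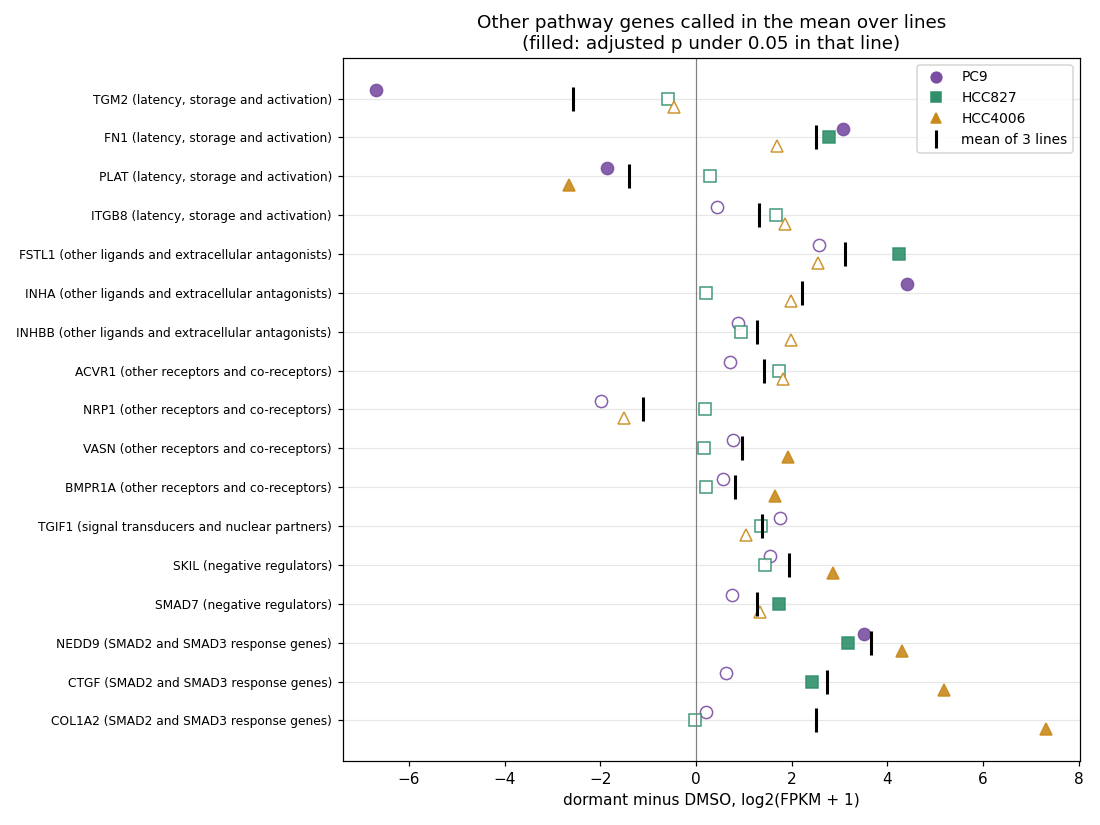
Difference of the 17 named pathway genes, dormant minus DMSO in log2(FPKM + 1), for each line (symbols, filled at an adjusted p under 0.05) and the mean over lines (vertical bars), ordered by list. NEDD9 lies above 3 in every line, COL1A2 lies at 7.32 in HCC4006 and TGM2 at -6.69 in PC9.

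Among the genes of latency, storage and activation, 2 of 15 tested rose (10.9% of all genes) and 2 fell (4.55%). FN1, which encodes fibronectin, a matrix anchor of latent TGF-beta complexes, had 57.8 and 69.0 FPKM in PC9 dormant cells, against 5.51 and 7.98 in PC9 DMSO cells, and rose by 2.51 ± 0.26 in the mean. ITGB8, a subunit of an integrin that activates latent TGF-beta, rose by 1.33 ± 0.31. It reached 1 FPKM in 1 DMSO library, so it needed dormant libraries to pass the filter. TGM2, a transglutaminase that crosslinks latent complexes to the matrix, had 0.81 and 0.215 FPKM in PC9 dormant cells, against 155.2 and 148.6 in PC9 DMSO cells. Its mean of -2.58 ± 0.25 rested on PC9, where it fell by 6.69 (adjusted p = 7.28e-05), while the differences of -0.58 in HCC827 and -0.47 in HCC4006 were not called. PLAT, tissue plasminogen activator, fell by 1.41 ± 0.20 in the mean and was called in PC9 (-1.87, adjusted p = 0.0198) and HCC4006 (-2.66, adjusted p = 0.00291).

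Of the other ligands and antagonists, 3 of 7 tested rose (10.9% of all genes) and none fell (4.55%). FSTL1, a secreted follistatin-like protein, had 361.1 and 75.3 FPKM in HCC4006 dormant cells, the second in the library that stood apart. HCC4006 DMSO cells had 29.02 and 26.1. FSTL1 rose by 3.11 ± 0.39 in the mean and by 4.23 in HCC827 (adjusted p = 0.00852). Its differences of 2.54 in HCC4006 (adjusted p = 0.057) and 2.56 in PC9 (adjusted p = 0.0973) were not called. INHA, the alpha subunit that turns beta subunits into inhibins, had 25.3 and 41.4 FPKM in PC9 dormant cells, against 0.53 and 0.59 in PC9 DMSO cells. It rose by 4.42 in PC9 (adjusted p = 0.0216), a call kept in 4 of the 12 cases with 1 library left out, and was under 0.2 FPKM in HCC827. It reached 1 FPKM in no DMSO library, so it passed the filter through dormant cells alone. In HCC4006 it had 0.26 FPKM in the first dormant library and 12.1 in the second, which stood apart. INHBB, the activin beta B subunit, rose by 1.27 ± 0.38, and with 1 DMSO library at 1 FPKM it too needed dormant libraries to pass. Among 11 other receptors tested, ACVR1, BMPR1A and VASN, a protein that binds TGF-beta, rose (10.9% of all genes) and NRP1 fell (4.55%). Like INHA, BMPR1A and VASN passed the filter through dormant libraries alone. ACVR1, a type I receptor of activins and bone morphogenetic proteins, rose by 1.42 ± 0.29.

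Negative regulators held 2 genes that rose of 12 tested (10.9% of all genes), and none that fell (4.55%). SMAD7, an inhibitor of the type I receptor that SMAD3 itself induces, had 5.14 and 5.16 FPKM in HCC827 dormant cells. HCC827 DMSO cells had 1.59 and 0.31, the lower in the library that stood apart. SMAD7 rose by 1.27 ± 0.23 in the mean. Its HCC827 difference was 1.74, and 1.25 without both libraries that stood apart. SKIL, a nuclear repressor of SMAD proteins, rose by 1.94 ± 0.37. Of 10 signal transducers and nuclear partners tested, 1 rose (10.9% of all genes), the repressor TGIF1, by 1.39 ± 0.25. None of the SMAD2, SMAD3 and SMAD4 genes was called. PMEPA1, a membrane protein that blocks SMAD activation, was chosen after its values were seen. It had 3.80 and 4.35 FPKM in PC9 dormant cells, against 24.9 and 23.9 in PC9 DMSO cells, and 16.03 and 18.6 FPKM in HCC827 dormant cells, against 3.06 and 1.88 in HCC827 DMSO cells. Its difference varied between lines (adjusted p = 0.0445), with -2.32 in PC9 (adjusted p = 0.0704) and 2.42 in HCC827 (adjusted p = 0.043). With 1 library left out, each of these calls held in 2 of 12 cases (highest adjusted p = 0.234 between lines and 0.298 in HCC827), and both were also lost with no filter, with quantile normalization and with a term for the replicate number.

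Of the 29 tested SMAD2 and SMAD3 response genes, 14 rose (10.9% of all genes) and 1 fell (4.55%) in the mean. The gene that fell was ANGPTL4, a lipase inhibitor (-1.61, adjusted p = 0.00692). Within lines, 3 rose in PC9 (1.82% of all genes), 6 in HCC827 (3.06%) and 12 in HCC4006 (4.88%). In HCC4006 1 fell, ANGPTL4 (1.18% of all genes). The 3 in PC9 were NEDD9, BPGM and CDKN2B, the last 2 named after their values were seen. CDKN2B, a cell cycle inhibitor known to be induced by TGF-beta in epithelial cells, rose by 3.29 in PC9 (adjusted p = 0.0012) and 3.41 in HCC827 (adjusted p = 0.00135). It was listed at 0 in all 4 HCC4006 libraries, and its difference varied between lines (adjusted p = 0.0141). CDKN2B reached 1 FPKM in 1 DMSO library, so it needed dormant libraries to pass the filter. COL1A1, counted in the mean and in HCC4006, had 0.36 to 0.805 FPKM in DMSO libraries. It passed the filter through dormant libraries alone, which favoured these counts. Many of these genes answer to other signals as well, and CTGF is also a known YAP target. NEDD9, a scaffold protein of adhesion signalling, rose in all 3 lines, by 3.51 in PC9 (adjusted p = 0.00301), 3.17 in HCC827 (adjusted p = 0.00577) and 4.30 in HCC4006 (adjusted p = 0.00114).

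CTGF, a matricellular growth factor, rose by 2.43 in HCC827 (adjusted p = 0.0241) and by 5.19 in HCC4006 (adjusted p = 0.000596), and its PC9 difference of 0.62 was not called (adjusted p = 0.792). COL1A2, a chain of type I collagen, had 367.7 and 249.6 FPKM in HCC4006 dormant cells, against 0.77 and 1.04 in HCC4006 DMSO cells, and rose by 7.32 there (adjusted p = 1.65e-05). It was below 1 FPKM in all libraries of PC9 and HCC827. With 1 DMSO library at 1 FPKM or more, COL1A2 needed dormant libraries to pass the filter. In the same HCC4006 groups the fibroblast markers summed to between 13.2 and 15.7 FPKM in dormant cells and between 1.96 and 2.13 in DMSO cells, and the part of this in the result was not tested. Of these 6 markers, COL1A1 had 7.45 and 12.2 FPKM in dormant cells, against 0.805 and 0.48 in DMSO cells, and THY1 5.26 and 2.37 FPKM, against 1.01 and 1.57. PDGFRB was at 0 and 1.13 FPKM in dormant cells and at 0 in DMSO cells, LUM was below 0.5 in all 4 libraries, and COL3A1 and DCN were at 0 in both dormant libraries.

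**Figure D4:**
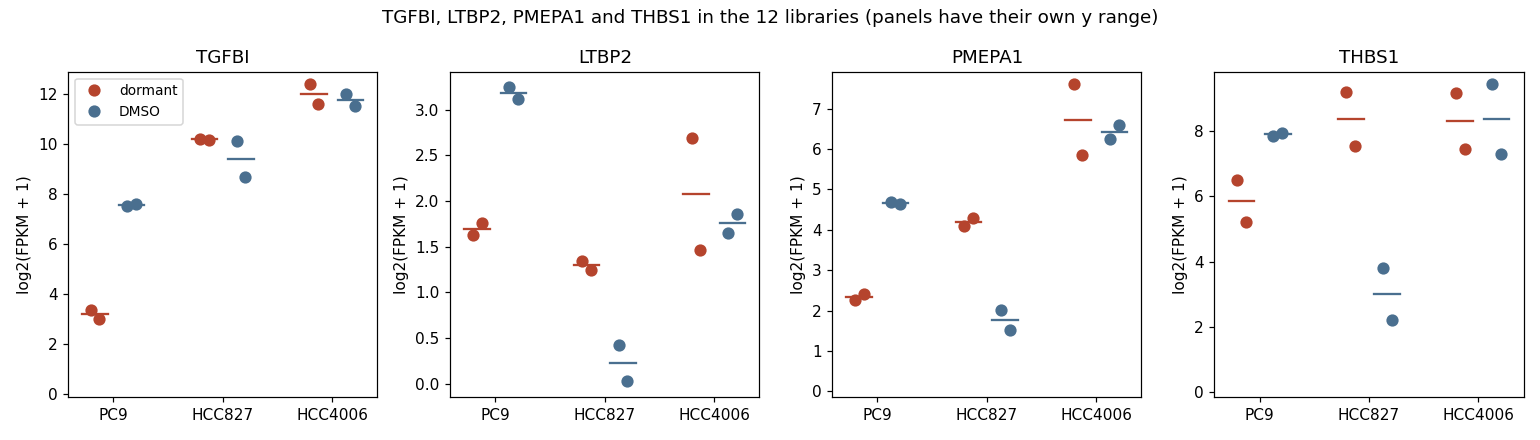
Level of TGFBI, LTBP2, PMEPA1 and THBS1 as log2(FPKM + 1) in the 12 libraries, with a bar at the mean of each group and dormant cells to the left of DMSO cells. For each gene both dormant points lie below both DMSO points in PC9 and above them in HCC827, and the HCC4006 groups overlap.

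THBS1, thrombospondin 1, an activator of latent TGF-beta, was also chosen after its values were seen. It had 89.6 and 36.1 FPKM in PC9 dormant cells, against 228.7 and 242.4 in PC9 DMSO cells, and 578.2 and 183.7 FPKM in HCC827 dormant cells, against 13.0 and 3.60 in HCC827 DMSO cells. It rose by 5.35 in HCC827 (adjusted p = 0.0131) and had a difference of -2.03 in PC9 that was not called (adjusted p = 0.444). Without both libraries that stood apart the HCC827 difference of THBS1 was 4.55. Whether the THBS1 difference varied between lines just missed the threshold (adjusted p = 0.0508), and was called with weights on libraries.

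The genes whose log2(FPKM + 1) was most like that of each member over the 12 libraries are given as a description, since these points share lines and libraries. TGFB2 was closest to MAP3K7CL, with a Pearson r of 0.989, and SCARB2, at 0.983. LTBP1 was closest to the cytokine gene IL11, at 0.99, and to CAPRIN1, at 0.986. TGFBI was closest to CRYBG1 (0.962) and CAPN2 (0.949), and INHBA to CYP1B1 (0.948). TGFBR1 was closest to RDH11 (0.983) and STARD4 (0.981), TGFBR2 to MAP7D3 (0.977) and ZNF462 (0.976). For TGFB3 these were C19orf66 (0.951) and BBS12 (0.937), and for LTBP2 PODXL (0.938) and PLXND1 (0.931).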

How the data were processed

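RNA was sequenced from 12 libraries, 2 for each of 6 groups. The deposited values are FPKM per gene, computed by the authors and given in 24 columns, 2 per library, whose meaning is not given in the sources used here. Both columns were averaged, and a library counted as 1 sample. The submitters' processing notes list, with no role or order, the genome builds GRCh37 and hg19 and the tools DESeq2 1.10.1, Cufflinks 2.2.1 and STAR 2.5.1b. The log2(FPKM + 1) of genes that reached 1 FPKM in 2 libraries or more was used unscaled. For these 14699 genes, group means were estimated in limma 3.58.1 (R 4.3.3) by lmFit and eBayes with trend = TRUE, with 6 residual and 3.84 prior degrees of freedom. The spread of a gene is pooled over the groups, so leaving out a library of any line changes the p of every line. Contrasts were dormant minus DMSO in each line and their mean. Moderated F tests compared the lines. All tests used Benjamini-Hochberg adjustment over all tested genes. The procedure was tested on simulated data. Tables and figures were made with matplotlib 3.10.9, numpy 2.4.6 and pandas 2.3.3 under Python 3.11.15.

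The 10 genes and the 6 pathway lists were chosen with earlier results of these data known, and the lists get no test of their own. Named are all members, up to 4 genes per list called in the mean with the largest difference, list genes called with opposite signs in 2 lines (0 were found), and the 2 genes nearest each member by Pearson r. A nearest gene with no symbol is not named. A gene that met this rule is not reported here, and all fits and counts include it. Upstream sequences are from RefSeq, and all 10 genes matched. GC content and overlapping genes are from GENCODE v29. The alternatives tried were a pseudocount of 0.1, other filters and scalings, single columns, a replicate block, weights on libraries, each line alone, line means, each library left out, and both libraries that stood apart left out.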

Additional observations from a re-analysis of the deposited data

Results flagged for a closer look

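For 7 of the genes named above, the difference between dormant and DMSO cells itself differed between the lines, against 1.48% of all genes. The test was limma's moderated F test, adjusted over all tested genes. PMEPA1 and CDKN2B among them were named after their values were seen, so the count is a description. TGFBI had an adjusted p of 0.0206, with differences of -4.36 in PC9, 0.80 in HCC827 and 0.26 in HCC4006. TGM2 had 0.00139, with -6.69 in PC9, -0.58 in HCC827 and -0.47 in HCC4006. PLAT had 0.0326, with -1.87 in PC9, 0.30 in HCC827 and -2.66 in HCC4006. CTGF had 0.0281, with 0.62 in PC9, 2.43 in HCC827 and 5.19 in HCC4006. COL1A2 had 0.000465, with 0.21 in PC9, -0.02 in HCC827 and 7.32 in HCC4006. PMEPA1 had 0.0445, with -2.32 in PC9 and 2.42 in HCC827, and CDKN2B had 0.0141, with 3.29 in PC9, 3.41 in HCC827 and 0 in HCC4006. TGM2 and COL1A2 kept this call with any 1 of the 12 libraries left out (highest adjusted p 0.0246 and 0.00725). CDKN2B kept it in 5 of 12 cases, TGFBI in 4, and PLAT, CTGF and PMEPA1 in 2 each.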

How the results depend on the processing

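The mean over lines called 3 members, and 5 with a pseudocount of 0.1, 6 without both libraries that stood apart, 0 with line means as replicates and 2 to 6 with 1 library left out. In PC9 1 member was called, and 2 with quantile normalization, median of ratios scaling or without both libraries, 3 with library weights, 4 with the line fitted alone and 0 to 2 with 1 library left out. In HCC827 1 was called, and 2 with a pseudocount of 0.1, with library weights or without both libraries, 0 with the line alone and 0 to 5 with 1 library left out. In HCC4006 3 were called, and 4 without both libraries, 1 with no filter, with a filter of 6 libraries or with median of ratios scaling, 0 with library weights or the line alone, and 0 to 5 with 1 library left out. The difference varied between lines for 1 member, and for 0 with no filter or the filter of 6 libraries, 2 with quantile normalization, 3 with library weights or without both libraries, and 0 to 7 with 1 library left out. The dormant lines differed in 5 members, and in 3 to 7 with 1 library left out. The DMSO lines differed in 4, in 7 with library weights or without both libraries and in 3 to 7 with 1 library left out. Of the pathway genes 29 were called, 53 without both libraries, 0 with line means and 21 to 64 with 1 library left out, the highest without the first HCC4006 dormant library (64) and the second (49). With either HCC4006 dormant library left out, more of all tested genes were also called in the mean over lines, in both directions. The rise was thus not confined to the pathway genes. The member counts with 1 library left out are given without a share of all genes, so they do not set the members apart. The causes were not tested.

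With a replicate block the mean called 3 members, PC9 1, HCC827 0 and HCC4006 1, the difference varied for 0, and 27 pathway genes were called. Libraries with the same number deviated together at r = 0.091 in PC9, 0.037 in HCC827 and 0.168 in HCC4006. With 2 libraries per group, these values cannot show whether libraries of the same number share more than that number.

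Signs turned for TGFBR1 in HCC827 (0.026 without both libraries, -0.16 to 0.04 with 1 left out), TGFBR2 in PC9 (-0.22 to 0.043 with 1 left out), TGFBI in HCC4006 (-0.11 with median of ratios scaling, -0.15 to 0.66 with 1 left out), LTBP2 in the mean (0.44 with a pseudocount of 0.1, 0.11 without both libraries, -0.24 to 0.17 with 1 left out) and LTBP2 in HCC4006 (-0.29 to 0.93 with 1 left out). None of these was called with all libraries. Of 1765 values under an alternative, 1423 kept direction and side of the threshold.

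The median difference of all genes was 0.22, and 0.034 with median of ratios scaling and 0.028 with quantile normalization. The split of calls was 1599 higher and 669 lower, against 1193 and 1256 or 1265 and 1316. TGFB3 was below the filter in 2 cases with 1 library left out, and TGFB3 and LTBP1 with the filter of 6 libraries. Depth is unknown, so levels near 0 FPKM cannot be told from 0.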
